A study of Mus musculus with 2 samples.

Results

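The Schlafen (Slfn) genes are a family of lymphoid and myeloid genes, several of which restrain the division of resting T cells. The 7 members described are Slfn1, Slfn2, Slfn3, Slfn4, Slfn5, Slfn8 and Slfn9, each taken as the transcript cluster (the set of probes for 1 gene) that names that gene alone. All 7 were measured, each by 1 cluster, among the 19938 genes with a cluster of their own. No cluster in the probe table named several Slfn genes.

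RNA came from CD4+ T cells of mouse spleen that were sorted by their high surface levels of the T cell receptor and CD4 and enriched for low CD44, a surface protein of activated and memory cells. The knockout (Taf7 -/-) sample came from TAF7f/- mice with the 8EIII-cre transgene, and the heterozygous (Taf7 +/-) sample from TAF7 f/- mice without it. The mice of both samples thus inherited 1 null allele, while the knockout cells are labelled null for both alleles. Both samples were on a C57/BL6 and 129 mix. TAF7 is a subunit of TFIID, the complex that recognises core promoters. The promoter that drives the Cre, the age of the mice and how many were pooled are not stated. Each genotype had 1 array, so no difference below has a replicate check, no test was made, and precision is limited by there being only 2 arrays.

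Schlafen proteins share a core domain that in several members binds or cuts transfer RNA. The short proteins Slfn1 and Slfn2 consist of little more than that core, Slfn3 and Slfn4 are of intermediate size, and Slfn5, Slfn8 and Slfn9 are long and carry a helicase-like region. Many of the genes are induced by type I interferon. Slfn2 is the member with the clearest role in quiescence: mice with the elektra mutation of Slfn2 have T cells that leave the resting state and die when they are stimulated. Slfn2 also protects transfer RNA from the ribonuclease angiogenin in activated T cells.

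The values are log2 gene-level signals, whose array medians were 7.68 (heterozygote) and 7.75 (knockout). Genes whose mean over both arrays reached 7.71, the 50th percentile of all rows, were called above the filter, and 10457 genes were. Their median difference, knockout minus heterozygote, was -0.05 on the log2 scale, and the central 95% of them lay between -0.62 and 0.39. Genes below the filter had a median difference of 0.14, which means that weak and strong genes were offset differently between the arrays. Taf7 itself had a log2 signal of 8.34 on the heterozygous and 7.79 on the knockout array, a difference of -0.55. The position of its probes within the gene is not stated, so this value does not check the deletion. Defining markers of CD4 T cells were strong on both arrays. Cd3e, a chain of the T cell receptor complex, was at 13.49 on the heterozygous and 13.50 on the knockout array and Cd4 at 12.99 and 12.77. Cd3d, another chain of the receptor complex, was at 11.56 and 11.06, while Cd3g was at 13.39 and 13.45 and the surface receptor Cd5 at 13.01 and 12.94. Thy1, a surface protein of T cells, was at 13.14 on the heterozygous and 12.21 on the knockout array, 1.91-fold lower. The 6 markers of this list that were measured had a median difference of -0.15. Cd8a, the defining gene of CD8 T cells, was below the filter at 7.63 and 7.65, and Cd8b1 was above it at 10.50 and 10.24.

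Of the 7 Schlafen genes, none differed by 1.5-fold between the knockout and the heterozygous array. Slfn1 and Slfn2 were nearly equal on both arrays. Slfn5, Slfn8 and Slfn9 were all slightly lower in the knockout, by 1.16-fold to 1.21-fold. Slfn3 was the lowest, at 1.39-fold lower, and Slfn4, a weak signal below the filter, was 1.42-fold higher. Among the 6 members above the filter 0 were 1.5-fold lower, against 3.17% of all genes above it, and 0 were 1.5-fold higher, against 0.449%, or 3.62% in either direction. With shares this small, a count of 0 among 6 genes lies near the background and is no result about the family.

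**Figure D1:**
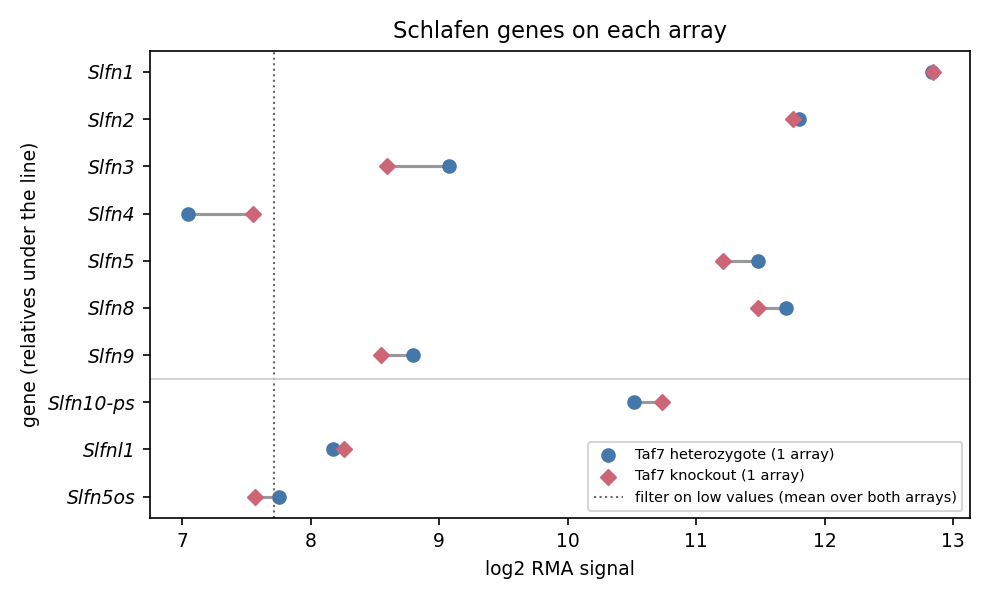
Log2 signal of each Schlafen gene on the heterozygous array (blue circles) and the knockout array (red diamonds), with 1 array per genotype and so no error bars. The dotted line is the filter value of 7.71, which applies to the mean of both arrays. The symbols overlap for Slfn1 and Slfn2 and lie farthest apart for Slfn3 and Slfn4, in opposite directions.

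Promoter sequences show which members carry letters that interferon-activated factors bind. They are RefSeq promoters of build GRCm38.p6, found by symbol for all 7 members, with 250 bases before and 50 after the annotated start. Slfn8 had 2 entries, of which the first was used. The core of an interferon response element, written as GAAA, any 2 bases and GAAA again, was searched on both strands and occurred in 3.44% of 32851 promoters of this length. It was present in 3 members, the long genes Slfn5, Slfn8 and Slfn9. The stretches of 80 bases around the match are shown in the sense of each gene, with the matched bases in capitals. In Slfn8 and Slfn9 the match is on the opposite strand, so the capitals are its reverse complement.
Slfn5: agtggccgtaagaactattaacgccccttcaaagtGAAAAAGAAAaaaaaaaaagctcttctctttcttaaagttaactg
Slfn8: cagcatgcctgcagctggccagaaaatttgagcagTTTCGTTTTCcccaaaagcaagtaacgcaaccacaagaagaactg
Slfn9: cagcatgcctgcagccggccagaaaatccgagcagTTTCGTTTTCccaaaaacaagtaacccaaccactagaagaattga

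These stretches lie at chr11:82951912-82951991 on the plus strand for Slfn5, at chr11:83020814-83020893 on the minus strand for Slfn8 and at chr11:82991831-82991910 on the minus strand for Slfn9. The match begins 155 bases before the annotated start in Slfn5, 48 before it in Slfn8 and 45 before it in Slfn9. The whole promoters of Slfn8 and Slfn9 were 80.8% identical in a global alignment, against 46.5% to 53.0% for the other 20 pairs of members. The Slfn5 match sits beside a run of A, so its capitals are less distinctive than the pair in Slfn8 and Slfn9.

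Slfn1, Slfn2, Slfn3 and Slfn4 had no match to that motif. Other sites for interferon-activated factors were not searched for, so this does not show that these genes lack them. The letters ACTTCCTGG, which hold the GGAA core bound by ETS factors on the opposite strand, were picked after the promoters of these 4 genes had been read, so that all 4 hold them is no finding. They were present on either strand in 0.843% of the 32851 promoters and in 4 members, Slfn1, Slfn2, Slfn3 and Slfn4, where they are capitalised below.
Slfn1: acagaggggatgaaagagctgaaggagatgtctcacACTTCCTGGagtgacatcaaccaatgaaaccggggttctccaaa
Slfn2: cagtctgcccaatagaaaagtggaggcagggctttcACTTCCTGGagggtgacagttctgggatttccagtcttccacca
Slfn3: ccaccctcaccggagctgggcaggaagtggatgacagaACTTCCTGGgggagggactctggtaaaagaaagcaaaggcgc
Slfn4: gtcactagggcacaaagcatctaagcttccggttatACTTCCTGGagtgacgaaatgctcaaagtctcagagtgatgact

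The stretches are on the plus strand at chr11:83116710-83116789 for Slfn1, chr11:83065021-83065100 for Slfn2, chr11:83191250-83191329 for Slfn3 and chr11:83175077-83175156 for Slfn4. The letters begin 74 bases before the annotated start in Slfn1, 55 in Slfn2, 42 in Slfn3 and 73 in Slfn4. The letters TATAAA, as in a TATA box, were searched on both strands at any position of the promoter. They were in the Slfn4 promoter only among the 7, and in 13.6% of all promoters. In Slfn4 they begin 19 bases before the annotated start. A match is a run of letters and not a measured binding site.

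Slfn1, the founding member, was named for arresting the growth of thymocytes when overexpressed. Its log2 signal was 12.84 on the heterozygous and 12.84 on the knockout array, the highest signal of the 7 clusters on each array. The difference was 0.00, where the 500 genes nearest to it in mean signal had a median of -0.03 and a central 95% range of -0.39 to 0.25. Signals of different clusters come from different probes, so their order is not an order of RNA amounts. The 3 genes closest to Slfn1 over the 2 arrays, by Euclidean distance of the log2 signals, were Wdr1 at 0.03, Gnai2 at 0.03 and Ifi203 at 0.04. With 2 arrays this likeness is only that of a level and a difference.

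Slfn2, the quiescence gene of the elektra mouse, had a log2 signal of 11.80 on the heterozygous and 11.76 on the knockout array. The difference was -0.04, at percentile 51.1 among the genes above the filter, and its sign turned to values of 0.01 after centring, 0.00 after removal of a trend with signal and 0.01 after quantile normalization. Slfn1 lay at percentile 59.3 of the same genes, so both short members were near the middle.

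Slfn3 and Slfn4 lay at opposite ends of the family. Slfn3, known in mice also for promoting the differentiation of gut epithelium, had a log2 signal of 9.07 on the heterozygous and 8.59 on the knockout array. The difference was -0.48, inside the central 95% of the 500 genes nearest in mean, which ran from -0.75 to 0.35, and at percentile 11.4 among them. Slfn4, an interferon-induced gene of macrophages and myeloid precursors, had a log2 signal of 7.04 on the heterozygous and 7.55 on the knockout array, both below the filter value of 7.71. Its difference was 0.51, at percentile 99.4 of the 500 genes nearest in mean, which had a median of 0.17 and a central 95% range of -0.46 to 0.45. It was the only member of the 7 outside that range, and after removal of the trend with signal its difference was 0.34. The gap between the differences of Slfn4 and Slfn3 was 0.99 on the log2 scale.

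Markers of myeloid cells, in which Slfn4 is known to be active, were weak on both arrays. Of the 10 markers measured, 9 were below the filter, and 7 were higher and 3 lower in the knockout. Their median difference was 0.15, beside 0.14 for all genes below the filter. The markers had a mean log2 signal of 6.97 on each array. They ranged from 5.86 to 8.75 in the heterozygote and from 6.01 to 8.89 in the knockout, and none was listed at 0. Lyz2, encoding lysozyme, was at 6.49 on the heterozygous and 6.54 on the knockout array, and Csf1r, the receptor of macrophage colony-stimulating factor, at 6.66 and 6.85. Cd68, a lysosomal protein of macrophages and the marker above the filter, was at 8.75 and 8.89. Itgam, the integrin alpha chain CD11b, went the other way, at 7.83 and 7.04. The part of myeloid cells in the Slfn4 signal was not tested.

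The long members Slfn5, Slfn8 and Slfn9 had similar differences. Slfn5, a nuclear interferon-induced protein, had a log2 signal of 11.48 on the heterozygous and 11.21 on the knockout array, a difference of -0.27. Slfn8, which reduces T cell proliferation when expressed as a transgene in mice, had a log2 signal of 11.70 on the heterozygous and 11.49 on the knockout array, a difference of -0.22. Slfn9, a close relative of Slfn8, had a log2 signal of 8.79 on the heterozygous and 8.55 on the knockout array, a difference of -0.24. All 3 differences lay inside the central 95% of the 500 genes nearest in mean, at percentiles of 8.60 for Slfn5, 14.2 for Slfn8 and 32.0 for Slfn9. All 3 stayed below 0 under every scaling tried. Slfn8 and Slfn9 are close paralogs and the probe sequences were not used here, so the values of this pair are uncertain where probes could bind both transcripts.

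**Figure D2:**
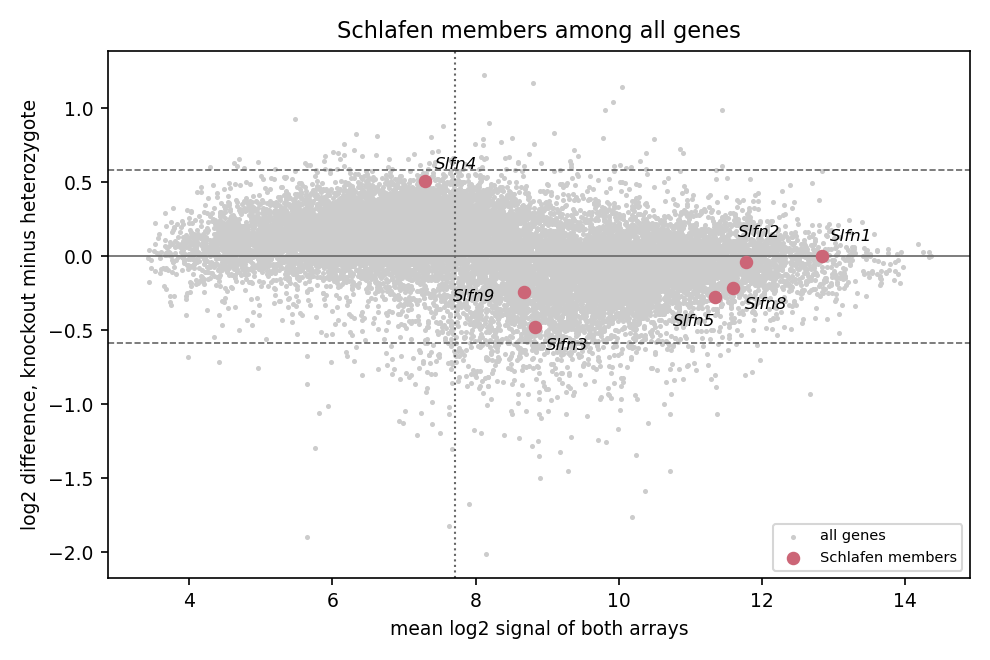
Difference between the arrays on the log2 scale, knockout minus heterozygote, against the mean log2 signal, for all genes with a cluster of their own (grey) and the 7 Schlafen members (red). Dashed lines mark 1.5-fold and the dotted line the filter value of 7.71. Every member lies within the dashed lines, with Slfn4 near the upper edge of the weak genes and Slfn3 at -0.48 on the lower side of the cloud.

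Of the 6 members above the filter, 5 were lower in the knockout and 1, Slfn1, was higher by 0.00, while 59.1% of all genes above the filter were lower. With the sign of Slfn2 turned, as under all 3 scalings, the split is 4 to 2. The 59.1% is not the background of that split, because the scalings also moved the median of all genes above the filter. It was 0.00 after centring, -0.004 after removal of the trend and 0.009 after quantile normalization. Without scaling, the median difference of the 6 members was -0.23 and that of all 7 was -0.22, against -0.05 for all genes above the filter. A filter at the 75th percentile leaves out Slfn3 and Slfn9 too, and the median of the rest was -0.13. The median of the 6 lies between Slfn8 and Slfn9, and the differences within the family spanned 0.48 above the filter.

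The Schlafen genes stand side by side on chromosome 11. In the reference order of GRCm38.p6 the measured genes run Slfn5os, Slfn5, Slfn9, Slfn8, Slfn10-ps, Slfn2, Slfn1, Slfn4 and Slfn3. The 3 long members that were lower by similar amounts are consecutive among the members. Slfn10-ps, the next measured gene after Slfn8, went the other way, with a log2 signal of 10.51 on the heterozygous and 10.74 on the knockout array, a difference of 0.22. It lay at percentile 97.0 of the 500 genes nearest in mean, inside their central 95%. Slfn5os, a noncoding RNA opposite Slfn5, was below the filter at 7.75 and 7.57, a difference of -0.18. Slfnl1, a distant relative on another chromosome, was at 8.17 on the heterozygous and 8.26 on the knockout array. Slfn14, at the end of the block, was not analysed here because no cluster in the probe table names it.

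Genes flanking the block also stayed within 1.5-fold. Of the 10 annotated genes on each side, 12 were measured and 9 were above the filter. Among those 9, 0 differed by 1.5-fold, near the 3.62% of all genes. Of the 9, 5 were lower and 4 higher, near the 59.1% lower among all genes, and their median difference was -0.03. They ran from -0.24 for Lig3, a DNA ligase, to 0.34 for Unc45bos, a noncoding RNA that directly precedes the block.

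**Figure D3:**
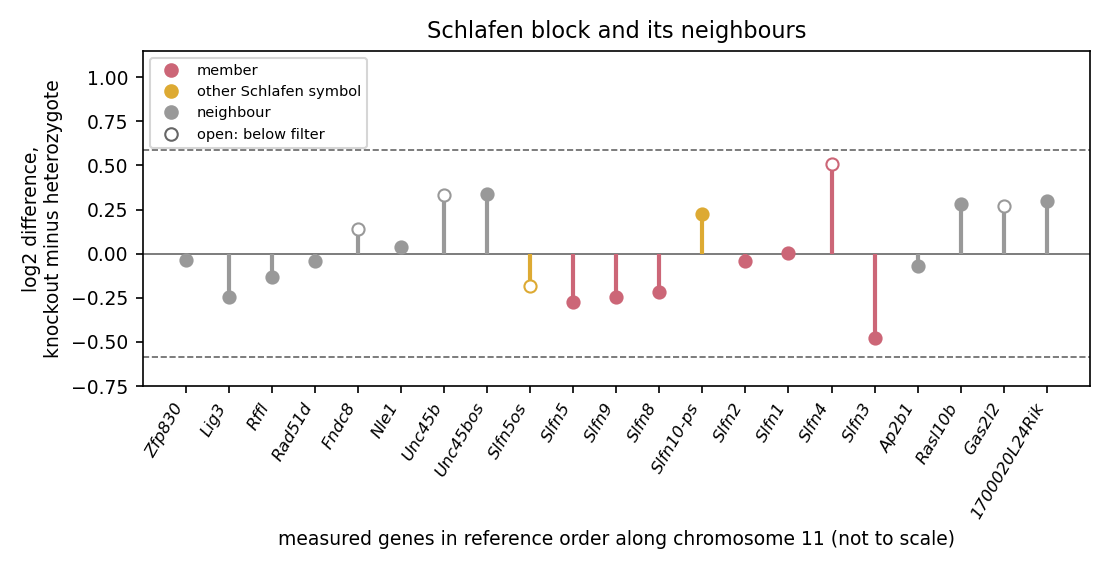
Difference between the arrays on the log2 scale, knockout minus heterozygote, for the measured genes of the Schlafen block and its neighbours, in reference order along chromosome 11 and not to scale. Red marks the members, yellow other Schlafen symbols, grey the neighbours, and open symbols genes below the filter; dashed lines mark 1.5-fold. Slfn5, Slfn9 and Slfn8 form a run of values from -0.27 to -0.22, and values on both sides of 0 follow.

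Other genes that hold T cells at rest also stayed within 1.5-fold. Of 24 listed quiescence factors, 23 were measured and all of those were above the filter. None of these 23 differed by 1.5-fold, which is near the 3.62% of all genes above the filter. Of the 23, 13 were lower and 10 higher, beside 59.1% lower among all genes, and their median difference was -0.03, against -0.05. Tob1, an antiproliferative factor, was the highest at 0.43, followed by Btg2, of the same family, at 0.14 and Klf2, which keeps naive T cells quiescent, at 0.11. The lowest were Klf6 at -0.38, the cyclin-dependent kinase inhibitor Cdkn2c at -0.35 and the inhibitory receptor Vsir, also called VISTA, at -0.30. Foxo1, a transcription factor of naive T cells, was at -0.19.

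Cell cycle genes above the filter held 0 of 20 past 1.5-fold, near the 3.62% of all genes. Of these 20, 10 were lower and 10 higher, beside 59.1% lower among all genes above the filter, and their median was -0.02. Cdk6, a kinase of early G1, was the highest at 0.44, then Ccnb2, a mitotic cyclin, at 0.31 and Top2a, a topoisomerase of dividing cells, at 0.26. Ccne1, the cyclin of S phase entry, was the lowest at -0.45, then E2f2 at -0.25 and Rrm1, a subunit of ribonucleotide reductase, at -0.21. Of the 25 cell cycle genes measured, 5 were below the filter, where all genes had a median difference of 0.14. Mki67, the proliferation marker, was 1 of these, at 7.50 on the heterozygous and 7.78 on the knockout array. Ccnd1, encoding the cyclin D1 that Slfn1 represses when overexpressed in mouse cells, was below the filter at 7.62 and 7.57.

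Genes that cut or protect transfer RNA were listed because Slfn2 acts on that step. Of 18 listed, 12 were measured and 10 were above the filter, of which 9 were lower and 1 was higher, beside 59.1% lower among all genes. The median of these 10 was -0.27, against -0.05 for all genes, and -0.12 with the filter at the 75th percentile; no test was made of the list. Trdmt1, the methyltransferase Dnmt2 that shields transfer RNA from cleavage, was the only member of the list past 1.5-fold, 1 of 10 against 3.62% of all genes. Its log2 signal was 9.20 on the heterozygous and 8.27 on the knockout array, 1.90-fold lower. The next lowest were Elac1, a transfer RNA processing nuclease, at -0.36 and Clp1, an RNA kinase, at -0.29. Rnh1, the inhibitor of angiogenin and related ribonucleases, was at -0.27. Nsun2, another transfer RNA methyltransferase, was the highest at 0.06, followed by the nuclease Elac2 at -0.05 and the RNA-binding protein Ssb at -0.12. The 2 angiogenin-family genes measured, Ang2 and Ang4, were below the filter.

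Interferon-stimulated genes, the class to which many Schlafen genes belong, included several that were lower by 1.5-fold. Of 41 listed, 35 were measured and 32 were above the filter, of which 6 were 1.5-fold lower and 0 were 1.5-fold higher, against 3.17% lower and 0.449% higher among all genes. The 6 were Ifit3, Ifit2, Oasl2, Rsad2, Oas3 and Ifit1, antiviral effectors with differences from -0.88 to -0.60. Of the 32, 25 were lower and 7 higher, beside 59.1% lower among all genes above the filter. The median of the 32 was -0.11, so it lay between the medians of all genes and of the Schlafen members above the filter. The highest were Oas2 at 0.29, Gbp7 at 0.19 and Parp14 at 0.17. Below the filter, Mx1 at -0.79, Mx2 at -0.79 and Ifitm3 at -0.60 were also lower by 1.5-fold. Whether this list differs from the Schlafen members was not tested.

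Receptors and signalling genes of the interferon pathway had a median of -0.02 over 17 measured, all above the filter. Of these 17, 10 were lower and 7 higher, near the 59.1% lower among all genes. None was 1.5-fold lower, against 3.17% of all genes, and 1 was 1.5-fold higher, against 0.449%. That gene was Irf8, a transcription factor of myeloid and B cells, at 8.59 on the heterozygous and 9.23 on the knockout array, 1.55-fold higher. Socs1, a feedback inhibitor, was at 0.36 and Irf7 at 0.23. The lowest were the receptor chains Ifnar2 at -0.34 and Ifngr1 at -0.32 and the feedback protease Usp18 at -0.30. The other receptor chains, Ifngr2 at -0.24 and Ifnar1 at -0.22, were also lower. A link between the receptor chains and the Schlafen differences was not tested.

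**Figure D4:**
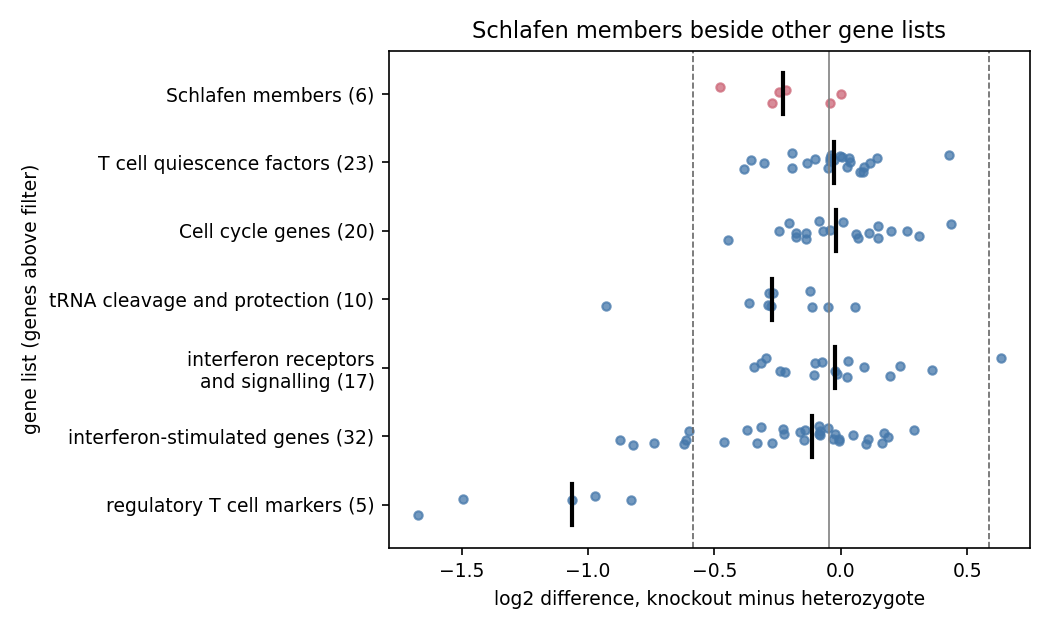
Difference between the arrays on the log2 scale, knockout minus heterozygote, for genes above the filter in each list. Each point is 1 gene, black bars are list medians, the grey line is the median of all genes above the filter (-0.05) and dashed lines mark 1.5-fold; numbers of genes stand in brackets. The Schlafen members sit within the dashed lines, with a median of -0.23, whereas all 5 regulatory T cell markers lie beyond them. Of all genes above the filter, 3.62% lie beyond the dashed lines.

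Markers of regulatory T cells were lower in the knockout, as were 3 of 4 markers of memory or activated T cells. All 5 regulatory T cell markers were past 1.5-fold lower in the knockout, against 3.17% of all genes above the filter. Their mean log2 signal was 10.18 on the heterozygous and 8.97 on the knockout array. Foxp3, which defines these cells, was at 11.25 on the heterozygous and 10.19 on the knockout array. Nrp1 had a difference of -1.67, Ctla4 of -1.50, Ikzf2 of -0.97 and Il2ra of -0.83. They ranged from 8.75 to 11.70 in the heterozygote and from 7.08 to 10.87 in the knockout. Of 4 memory or activation markers measured, 3 were above the filter and all 3 were lower, beside 59.1% of all genes above the filter. Cd44 was at -1.35, Cxcr3 at -0.44 and Il2rb at -0.31, and the marker below the filter was at 0.02. Only Cd44 was past 1.5-fold lower, 1 of 3 against 3.17% of all genes. The cells were enriched for low CD44, and the part of that enrichment in the Cd44 value was not tested. The 3 naive markers measured had a median of -0.11, with Il7r at -0.22, Ccr7 at -0.11 and Lef1 at 0.06. In a bulk sample fewer cells of a type and less RNA per cell cannot be told apart, and the part of these cells in the Slfn3, Slfn5, Slfn8 and Slfn9 differences was not tested.

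Markers of the remaining spleen cell types were mostly below the filter. This held for 5 of 6 B cell, 5 of 5 dendritic cell, 5 of 5 natural killer cell and 2 of 2 erythroid markers measured. The B cell marker above it was Cd79b, a chain of the B cell receptor complex, at 8.24 and 8.23. B cell markers had a mean log2 signal of 6.94 on the heterozygous and 7.15 on the knockout array, dendritic cell markers 6.71 and 6.82, natural killer cell markers 5.10 and 5.21, and erythroid markers 6.94 and 7.17. The median differences were 0.24 for B cell markers, 0.11 for dendritic cell markers, -0.01 for natural killer cell markers and 0.23 for erythroid markers, beside 0.14 for all genes below the filter.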

How the data were processed

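The log2 signals per gene, as deposited, were made by the authors with RMA in Affymetrix Expression Console 1.1, keeping the core gene set, per the series design text and the submitters' processing notes. An exon array is named there, but the identifiers matched the probe table of a whole transcript gene array, and this was not settled. No source used here states the genome build or the probe positions. Of 35556 rows, 21789 had 1 gene symbol, 1621 several and 12146 none. For a gene with several clusters the one of highest mean was taken. Values were compared without further normalization. With 1 array per genotype, genes were counted at 1.5-fold among those above the 50th percentile of all rows. The 500 genes nearest in mean serve as a description.

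Named are the members, every Slfn cluster, Taf7, the 3 highest and 3 lowest of each list and those past 1.5-fold, all above the filter, defining markers, and the 3 genes most like Slfn1. Other markers are given by counts and means. Ccnd1, Mki67, Foxo1, Rnh1, Ifngr2, Ifnar1, Ang2, Ang4, Mx1, Mx2, Ifitm3, Lig3 and Unc45bos were named after their values were seen. The members and lists were chosen with earlier results of these data known. The counting procedure was tested on simulated data. The scalings tried were quantile normalization, a loess trend taken out (span 0.3) and centring on the median difference of the genes above the filter. The other alternatives were averaged clusters, filters at the 25th and 75th percentiles or none, and 2-fold. Sequences are RefSeq promoters of GRCm38.p6, aligned with Biopython 1.88. Scripts ran under Python 3.11.15 with matplotlib 3.10.9, statsmodels 0.14.6, pandas 2.3.3 and numpy 2.4.6.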

Additional observations from a re-analysis of the deposited data

How the results depend on the processing

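No paired analysis was possible because there is only 1 array of either genotype, and for the same reason no array could be left out. Of 28 values of single members under alternatives, 27 stayed within the robust SD of the 500 genes nearest in mean; the exception was Slfn4, at 0.34 against 0.51 with the loess trend removed, where genes below the filter had a median difference of 0.14. The 28 include 7 with clusters averaged, which could not move because each member has 1 cluster. The sign changed in 3 of the 28, all of them for Slfn2, whose difference lies next to 0. The median of the members above the filter ran from -0.23 to -0.13, the latter at the 75th percentile. No member above the filter passed 1.5-fold under any of the 8 alternatives. Only the 3 scalings could have changed this, as the others leave the member differences unchanged or ask for a larger one. The count of all genes at least 1.5-fold lower, 332, was 105 with the filter at the 75th percentile and 34 at 2-fold. The count at least 1.5-fold higher, 47, was 71 after centring, 91 with no filter, 16 with the filter at the 75th percentile and 4 at 2-fold; these moves follow from the constant added, the genes admitted or the size asked for. Of 82 median values of the other lists under alternatives, 67 stayed within the spread of the list's own members, 15 moved further and 14 changed sign. The 15 belong to the CD8 T cell, B cell and myeloid lists, each with 1 marker above the filter and so with no spread. The 14 sign changes fell in the quiescence factor, interferon receptor and signalling, cell cycle and B cell lists. Medians of these lists lay next to 0, from -0.03 to -0.01, so their signs depend on the processing.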
